A study of Mus musculus with 2 samples.

Results

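The D cyclins, their kinase partners CDK4 and CDK6, and the CDK inhibitors of the Cip/Kip and INK4 families are described here in erythroid cells given siRNA against ETO2. The members were chosen by name: Ccnd1, Ccnd2, Ccnd3, Cdk4, Cdk6, Cdkn1a, Cdkn1b, Cdkn2c and Cdkn2d. Every probe with 1 of these names was taken, which gave 9 of the 27745 gene names on the array and 16 of its 41174 non-control probes. Each of 2 Agilent arrays carried a pair of RNAs from G1E-ER-GATA-1 cells of the mouse. G1E cells come from mouse embryonic stem cells that lack GATA-1, the master transcription factor of red cell maturation, and in this derivative a fusion of GATA-1 with part of the oestrogen receptor was put back. In both groups the endogenous Gata1 was null, the ER-GATA-1 fusion was present, and b-estradiol, which activates it, was given for 24 h. The groups differed in the siRNA transfected beforehand, which was either control siRNA (Cy5, red) or ETO2 siRNA (Cy3, green). ETO2 is a corepressor that binds GATA-1 complexes, and its gene is Cbfa2t3. Dyes were not swapped, so a dye effect and the ETO2 siRNA effect on a probe cannot be told apart. The comparison asks how lowering ETO2 changes expression during maturation induced by GATA-1.

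D cyclins bind CDK4 or CDK6 and phosphorylate the retinoblastoma protein, which frees E2F factors to switch on the genes of DNA replication. INK4 proteins such as p18 (Cdkn2c) and p19 (Cdkn2d) bind CDK4 and CDK6 directly, while the Cip/Kip proteins p21 (Cdkn1a) and p27 (Cdkn1b) inhibit CDK2 complexes and are also bound by cyclin D complexes. In erythroid precursors, cyclin D2 and D3 are the main D cyclins, and the last divisions of maturation end in cell cycle exit with rising CDK inhibitors.

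The probes behind the results are shown to let a reader see which part of a transcript each value reports, 5′ to 3′ in the sense of the transcript. Probes that read through without a stop codon in the frame of the protein are given whole, and of the others only the first 30 bases are given. For Cdk4 the capitals mark the codons of the DFG motif that opens the kinase's activation segment.
Ccnd2 A_52_P53906: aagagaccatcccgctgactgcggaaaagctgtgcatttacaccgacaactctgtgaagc
Ccnd2 A_51_P433228: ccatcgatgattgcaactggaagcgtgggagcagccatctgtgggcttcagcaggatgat
Ccnd2 A_52_P514391: gtctctccgtcgcatactcttgctgactaa
Ccnd3 A_51_P238448: gggtcttaagggtgccgtggtcattttaat
Cdk4 A_51_P437027: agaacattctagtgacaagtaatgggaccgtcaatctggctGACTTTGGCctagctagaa
Cdkn1a A_51_P363947: ctaagggagctcacaggacactgagcaatg
Cdkn1b A_51_P169173: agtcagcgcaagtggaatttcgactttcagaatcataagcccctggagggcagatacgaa
Cdkn1b A_51_P146126: ttcattgcctgtgtatgagaaaaacttgga
The 3 Ccnd2 probes sample different stretches of 1 transcript, and the probes of Cdkn1b sample the coding part and a separate stretch. No member probe shared a run of 16 or more bases with a probe of another gene.

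Of 10 erythroid markers measured, 9 were higher after ETO2 siRNA and 1 did not pass the test, with a median log2 ratio of 0.96. Hba-a1, counted among the 9, was saturated in both channels, and median centring put Epor and Klf1 below 0, at -0.08 and -0.39. Relative to the all-probe median under that scaling, Epor was at 0.21 but Klf1 at -0.10, so the rise of Klf1 was not kept. The labels also call the cells ES cells, but only 3 of 8 embryonic stem cell markers were measurable, and Pou5f1, Nanog and Sox2 were not well above background. Cbfa2t3 itself stood at 74.6% of control by 1 probe and at 85.6% by the other (log2 ratios -0.42 and -0.23). Corrected for array row as described below, it stood at 79.4% and 87.7%. Its log2 ratios were -0.98 and -0.73 under median centring, where the median of all probes was -0.29, and -0.37 and -0.14 with processed signals. By each of these its RNA was lowered only in part, and the size of the fall depended on the processing. ETO2 protein was not measured here. The summed processed signal of the 7 measured mast cell and basophil markers was 3336 and 3703 scanner units after ETO2 siRNA and 5904 and 6643 after control siRNA. Gata2 was the brightest of them, with a mean log2 signal of 11.2 against 6.3 to 8.1 for the others, so the sum mostly follows Gata2. Of the 7 markers, 3 fell (Hdc, Prg2 and Gata2) and 2 rose (Mcpt1 and Mcpt4). Cpa3 and Fcer1a did not pass the test, and a second Mcpt4 probe was at 0.006. Of 5 measured granulocyte and macrophage markers, 3 fell and none rose, with sums of 525 and 636 against 1049 and 1111. The brightest was Fcgr3, with a mean log2 signal of 8.5, while the falling Prtn3 and Tyrobp were dim, at 6.7 and 6.5. Under median centring Prtn3 and Tyrobp stood at -0.09 and -4.3e-05 relative to the median of all probes. Over all genes by their brightest probe, 18.1% were called higher and 21.9% lower. The part of either marker shift in the results below was not tested. The arrays measure total RNA of a culture, so fewer cells of a type and less RNA per cell cannot be told apart.

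A ratio is given as log2 of ETO2 siRNA over control siRNA after background correction and loess normalization on brightness, and it was tested with limma with Benjamini-Hochberg adjustment over all probes. The ratios also followed the position of a spot on the array. Over 10 bins of the 532 array rows, the median log2 ratio of all spots above background went from -0.19 at the top to 0.14 at the bottom, on both arrays. A second loess on brightness and row left the bin medians within 0.02 of 0. Each member is therefore given by its ratio as designed and by its row-adjusted ratio, which was added after the trend was seen.

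The clearest change among the members was in Ccnd2, which fell on all of its probes to between 44.1% and 57.6% of control. Ccnd3 and Cdk4 rose to 131% and 133% of control, although median centring put both below 0. Cdkn1a fell to 81.6% of control, and Ccnd1 and Cdk6 did not pass the test. Of 16 member probes, 15 were well above background in at least 1 channel on both arrays and were tested. At an adjusted p below 0.05, 3 were higher and 7 lower, in an experiment where 18.8% of all 24430 tested probes were called higher and 20.7% lower. Row-adjusted, 3 were higher and 4 lower, beside 14.6% and 13.8% of all probes. With the scanner software's processed signals, which are detrended over the array, the members gave 2 and 3 beside 5.78% and 5.52%. The authors' deposited table of the same ratios gave 1 and 3 beside 5.44% and 5.15%. Median centring in place of loess gave 0 and 11 beside 3.11% and 63.7%. The lower calls common to all of these settings were the 3 Ccnd2 probes. The median log2 ratio of all tested probes was -0.01.

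**Figure D1:**
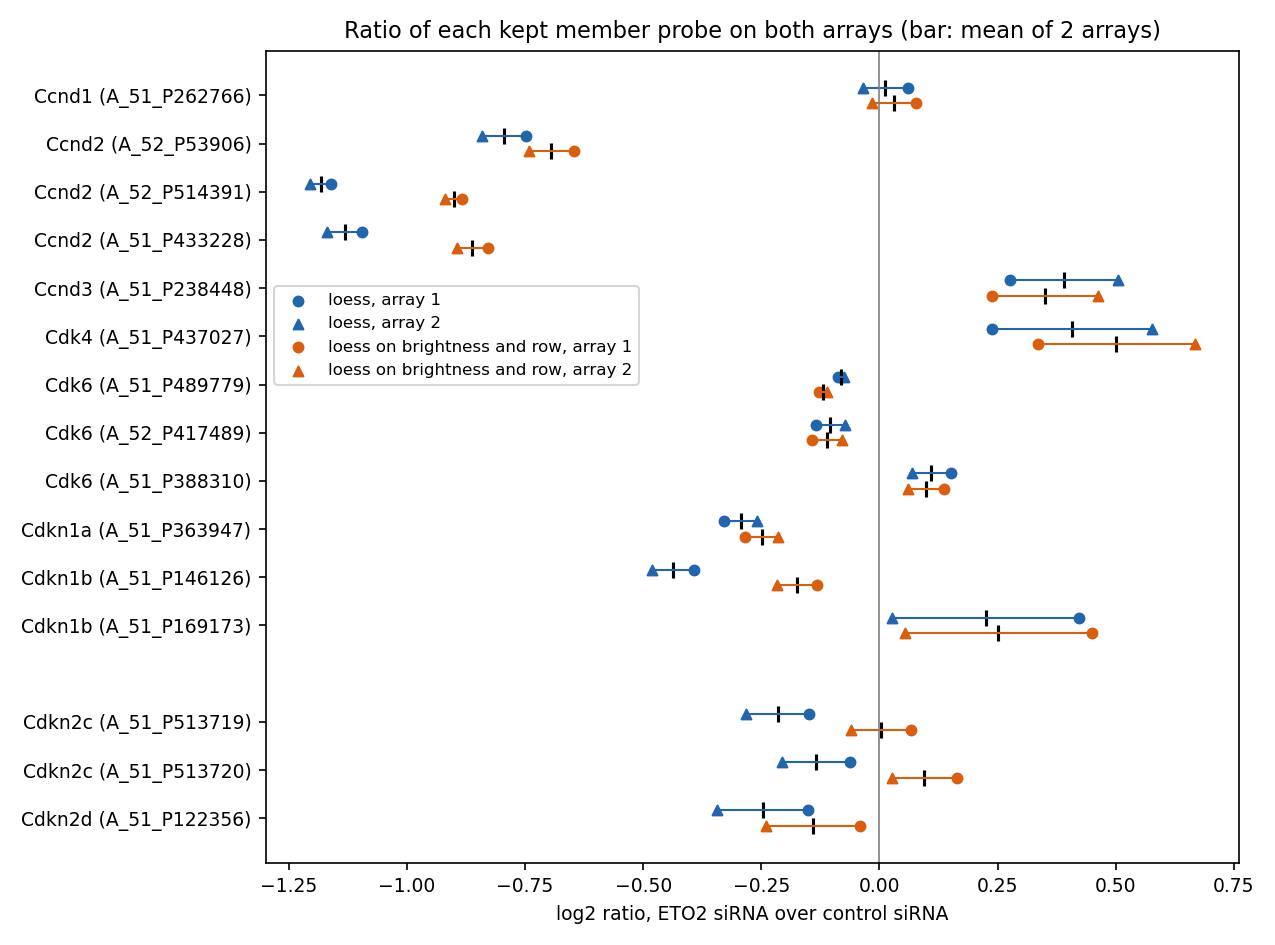
Log2 ratio of ETO2 siRNA over control siRNA (horizontal axis) for the 15 tested member probes, with circles for array 1, triangles for array 2, a line joining both arrays and a black bar at their mean. Blue is loess on brightness and orange is loess on brightness and array row. The 3 Ccnd2 probes lie below -0.6 either way, while both Cdkn2c probes lie below 0 in blue and move to about 0 or above in orange, and under median centring Ccnd3, Cdk4, Cdk6 A_51_P388310 and Cdkn1b A_51_P169173 change sign.

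Cyclin D2, encoded by Ccnd2, partners CDK4 and CDK6 and is induced by growth factor receptors such as Kit. Its probe A_52_P514391 had mean spot signals of 6956 and 6482 scanner units after ETO2 siRNA and of 28400 and 31081 after control siRNA. These raw channel signals differ in brightness, with array medians of 82.8 and 77.5 in green against 105 in red on both arrays, so ratios are read after normalization. The log2 ratios were -1.16 and -1.20 on the 2 arrays, with a mean of -1.18 ± 0.03 (SD, n = 2) and an adjusted p of 3.16e-09 by limma. That is 44.1% of control, with a 95% interval of the log2 ratio from -1.32 to -1.05. Both arrays were low by nearly the same amount.

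The other Ccnd2 probes fell as well. A_51_P433228, from the later coding part printed above, gave -1.09 and -1.17 (mean -1.13 ± 0.05, SD, n = 2; 45.6% of control). A_52_P53906, upstream of it in the coding part, gave -0.75 and -0.84 (mean -0.80 ± 0.07, SD, n = 2; 57.6% of control). The first pair of probes lay in rows 4 and 13 of the array, where ratios of all spots were lowest, and A_52_P53906 in row 172. Row-adjusted, the means were -0.90, -0.86 and -0.69, or 53.5%, 55.0% and 61.8% of control, so the probes stood closer together. Over 10 other ways of processing, A_52_P53906 stayed past the threshold with an adjusted p between 1.69e-66 and 0.014. The other 2 probes stayed past it in all 8 that apply to them. The mean of the gene's kept probes, counted among the 10 for A_52_P53906, was -1.04 and does not describe that probe alone. Median centring in place of loess moved the median of all probes to -0.29 and the Ccnd2 probes to between -1.77 and -1.38, which is -1.48 to -1.10 relative to that median.

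**Figure D2:**
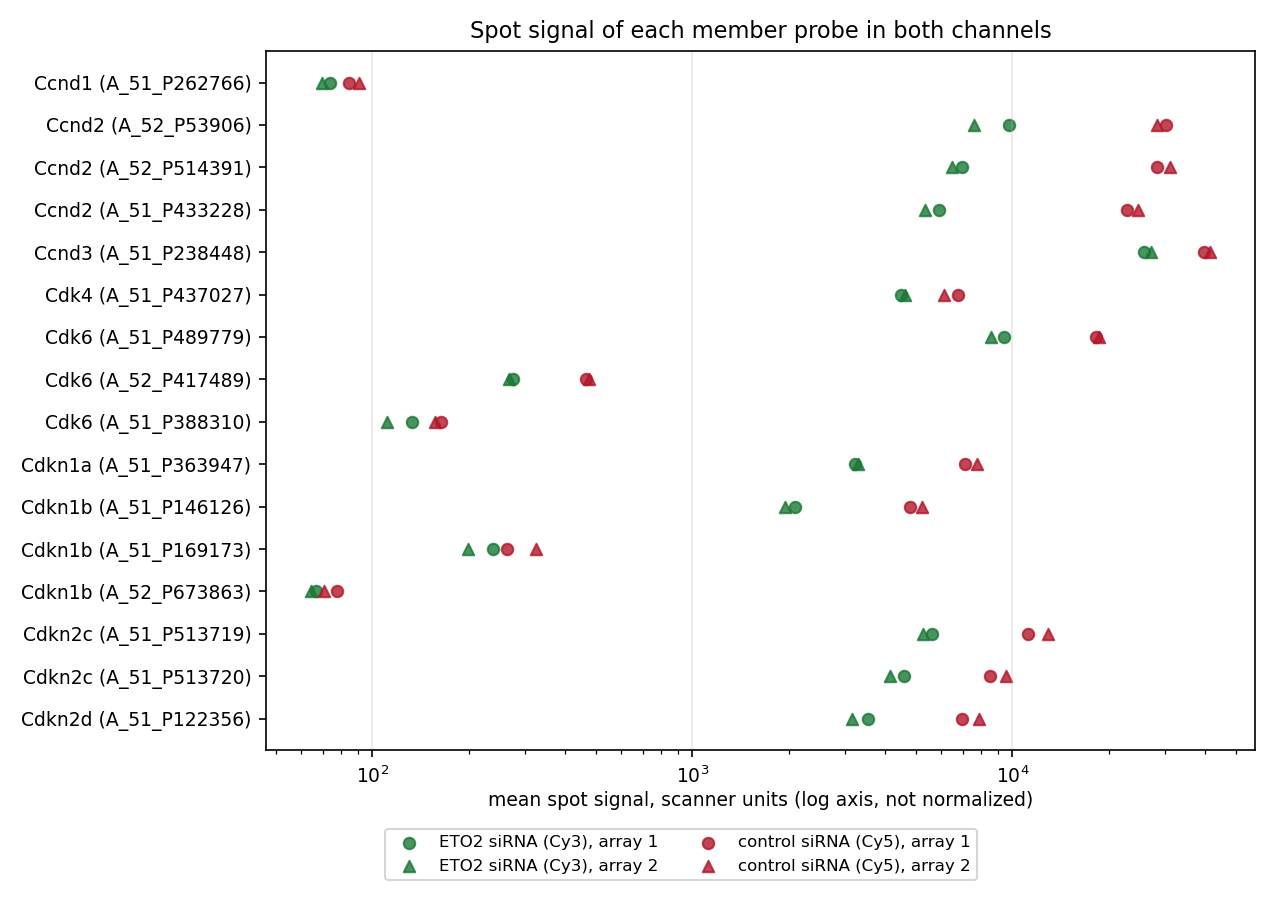
Mean spot signal of the 16 member probes in scanner units on a log axis, before normalization, with green for ETO2 siRNA (Cy3), red for control siRNA (Cy5), circles for array 1 and triangles for array 2. The channels differ in brightness, and the widest gaps between green and red are those of Ccnd2. Ccnd1 and Cdkn1b A_52_P673863 lie below 100 units, over local backgrounds of about 45 units.

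Cyclin D3, encoded by Ccnd3, governs the number of divisions of late erythroid precursors. Its probe had signals of 25744 and 27075 units after ETO2 siRNA and 39854 and 41416 after control siRNA, below the saturation limit of 65221 units. The log2 ratios were 0.28 and 0.50, with a mean of 0.39 ± 0.16 (SD, n = 2) and an adjusted p of 4.18e-04 by limma, or 131% of control. It thus moved the opposite way to Ccnd2 on both arrays. The row-adjusted mean was 0.35. Under median centring the log2 ratio was -0.24, which is 0.04 above the all-probe median, so the sign of Ccnd3 depends on how the channels are scaled. It was then called lower, with an adjusted p of 0.0033 by limma. The adjusted p was 0.0470 with processed signals and 0.0495 with the authors' deposited table, both close to the threshold.

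Cyclin D1, encoded by Ccnd1, was dim. Its 10 spots averaged 73.7 and 69.6 units after ETO2 siRNA and 84.7 and 91.0 after control siRNA, over backgrounds of 44.3 to 47.1 units. The log2 ratios of 0.06 and -0.03 straddled 0, with a mean of 0.01 ± 0.07 (SD, n = 2) and an adjusted p of 0.901 by limma. The 95% interval ran from -0.12 to 0.15. So close to background, a ratio is drawn toward 0 by the offset added to the signals, and a change in Ccnd1 could not be seen well here.

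Cdk4 encodes the kinase subunit that D cyclins activate, and its probe lies in the kinase domain. Signals were 4498 and 4603 units after ETO2 siRNA and 6759 and 6095 after control siRNA. The log2 ratios were 0.24 and 0.58, with a mean of 0.41 ± 0.24 (SD, n = 2), an adjusted p of 6.22e-04 by limma and 133% of control. Cdk4 was higher on both arrays, with the larger rise on array 2. The row-adjusted mean was 0.50. Under median centring the log2 ratio was -0.12, or 0.17 relative to the all-probe median, and with the authors' deposited table it was 0.49 with an adjusted p of 0.0512. Over the 10 other ways of processing, the adjusted p lay between 3.42e-04 and 0.173.

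Cdk6, the other kinase partner of the D cyclins, did not pass the test on any of its 3 probes. The brightest, A_51_P489779, gave log2 ratios of -0.09 and -0.08, with a 95% interval of the mean from -0.22 to 0.05. The coding probe A_52_P417489 gave -0.13 and -0.07, and A_51_P388310 gave 0.15 and 0.07. The 3 probes lay in rows 303 to 315, where the row trend is near 0, and their row-adjusted means were -0.12, -0.11 and 0.10. Under median centring A_51_P489779 and A_52_P417489 passed the threshold at -0.66 and -0.42, while A_51_P388310 was at -0.06. Relative to the all-probe median under that scaling, these were -0.37, -0.13 and 0.23, so the probes kept their signs. As designed, the intervals leave room for a change of up to 1.19-fold on any of the probes, and do not show that Cdk6 was equal in both groups. They hold for that processing only. Under median centring A_51_P489779 lay outside its interval, also relative to the all-probe median. A_51_P388310 was dim, so the offset added to the signals drew its ratio toward 0. Its mean was 0.11 as designed, 0.19 with an offset of 0 and 0.18 with processed signals. The bound of 1.19-fold is therefore likely too tight for that probe.

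p21, encoded by Cdkn1a, is a CDK inhibitor induced by p53 and during terminal maturation. Its single probe was printed at 10 spots. Mean signals were 3223 and 3295 units after ETO2 siRNA and 7133 and 7767 after control siRNA. The log2 ratios were -0.33 and -0.26, with a mean of -0.29 ± 0.05 (SD, n = 2), an adjusted p of 0.00189 by limma and 81.6% of control. Cdkn1a was therefore slightly lower on both arrays.

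The 10 Cdkn1a spots lay between rows 27 and 435 and show the row trend within 1 probe. On array 1 the ratio went from -0.53 at the top spot to -0.09 at the bottom spot, and on array 2 from -0.47 to -0.01. Their SD was 0.148 and 0.140, and 0.0184 and 0.0218 once row-adjusted. All 10 spots were then still below 0 on both arrays, between -0.32 and -0.25 on array 1 and between -0.25 and -0.17 on array 2. The row-adjusted mean was -0.25 (84.1% of control). With the scanner software's processed signals the ratio was -0.27 with an adjusted p of 0.0933 by limma, which misses the threshold. Over 10 other ways of processing the adjusted p lay between 4.10e-24, under median centring, and 0.0947.

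**Figure D3:**
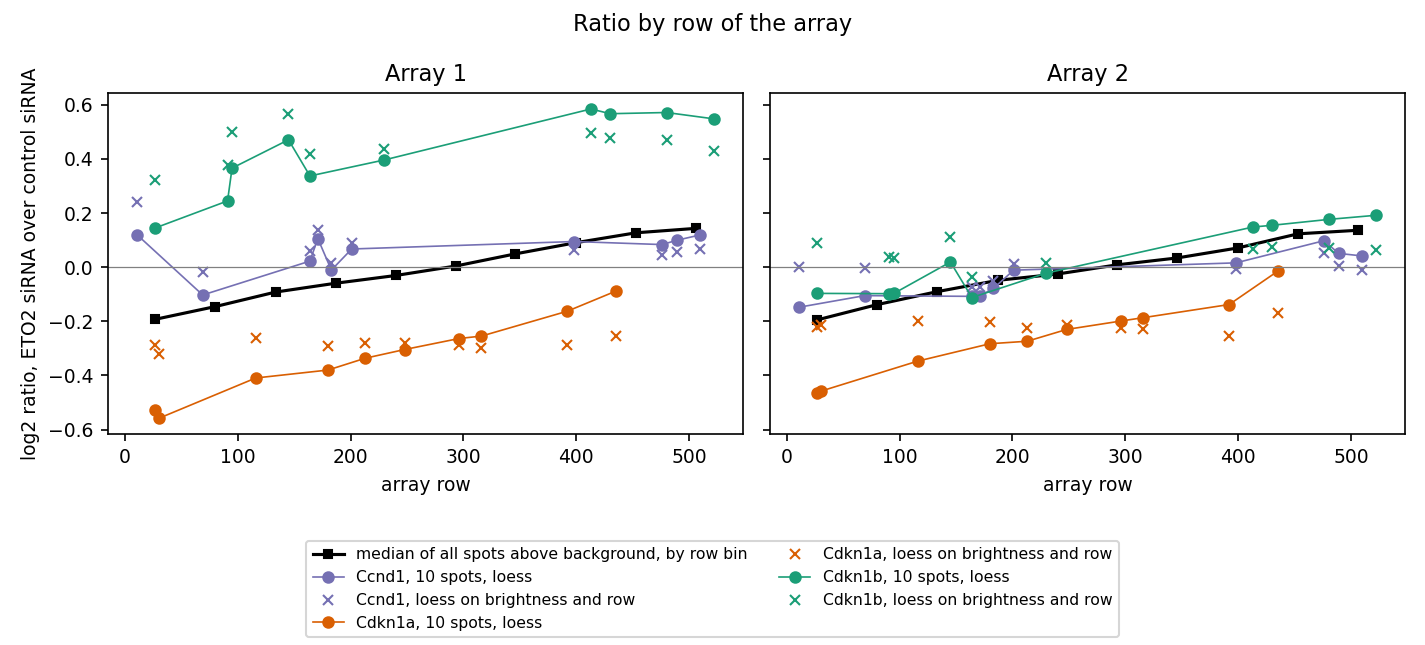
Log2 ratio of ETO2 siRNA over control siRNA against array row on each array, for the 10 spots of Ccnd1, Cdkn1a and Cdkn1b A_51_P169173 and for the median of all spots above background in 10 row bins (black). Filled circles are loess on brightness and crosses are loess on brightness and row. The black line climbs from -0.19 to 0.14 on both arrays, the Cdkn1a spots climb with it, and the crosses of Cdkn1a are level below 0.

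p27, encoded by Cdkn1b, accumulates as erythroid precursors leave the cell cycle. Its probes disagreed. A_51_P146126 had log2 ratios of -0.39 and -0.48 (mean -0.44 ± 0.06, SD, n = 2; 73.8% of control), and passed the test with an adjusted p of 7.77e-05 by limma. The coding probe A_51_P169173 had 0.42 and 0.03 (mean 0.22 ± 0.28, SD, n = 2; 117% of control), and passed it in the other direction with an adjusted p of 0.0375. The third probe, A_52_P673863, was not well above background after ETO2 siRNA on either array and was not tested. The direction of Cdkn1b is thus not settled by these probes.

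The fall of A_51_P146126 was seen at row 6 of the array. Row-adjusted, its log2 ratio was -0.17 with an adjusted p of 0.0551 by limma, and with processed signals -0.16 with 0.248, so the call was lost. Of 10 other ways of processing, 6 kept it past the threshold (adjusted p between 6.40e-31, under median centring, and 0.248). The mean of the gene's kept probes, counted among the 10, gave -0.11 with an adjusted p of 0.23 by limma. That mean includes the rising A_51_P169173, so it does not describe A_51_P146126 alone. Ways that change only the filter, the saturation rule or the choice of the brightest probe leave the ratio of A_51_P146126 at -0.44, so they could hardly lose the call. The 10 spots of A_51_P169173 were spread over rows 27 to 522. Row-adjusted, they lay between 0.32 and 0.57 on array 1 and between -0.03 and 0.11 on array 2, so the rise rests on array 1. Its row-adjusted mean was 0.25, and median centring gave -0.05, which is 0.24 above the all-probe median. In 3 of 8 other ways of processing it stayed past the threshold, with an adjusted p between 0.0357 and 0.627.

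The INK4 inhibitors lost the calls they had once the ratios were row-adjusted. Cdkn2c, which encodes p18, was read by probes that share 40 bases. A_51_P513719 had signals of 5621 and 5257 units after ETO2 siRNA and 11191 and 12941 after control siRNA. Its log2 ratios were -0.15 and -0.28, with a mean of -0.22 ± 0.10 (SD, n = 2) and an adjusted p of 0.0164 by limma. A_51_P513720 gave -0.06 and -0.21 and did not pass, with an adjusted p of 0.12. They lay in rows 56 and 44, and the row-adjusted means were 0.0034 and 0.10, neither past the threshold. The sign of Cdkn2c therefore depended on the row adjustment for both probes, and for A_51_P513720 also on the use of processed signals, which gave 0.06.

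Cdkn2d, which encodes p19, had signals of 3547 and 3151 units after ETO2 siRNA and 6955 and 7868 after control siRNA. The log2 ratios were -0.15 and -0.34, with a mean of -0.25 ± 0.14 (SD, n = 2), an adjusted p of 0.00914 by limma and 84.3% of control. It was lower on both arrays, less so on array 1. Its probe lay in row 158, and the row-adjusted mean was -0.14 with an adjusted p of 0.142 by limma. Over 10 other ways of processing the adjusted p lay between 1.34e-21, under median centring, and 0.367.

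**Figure D4:**
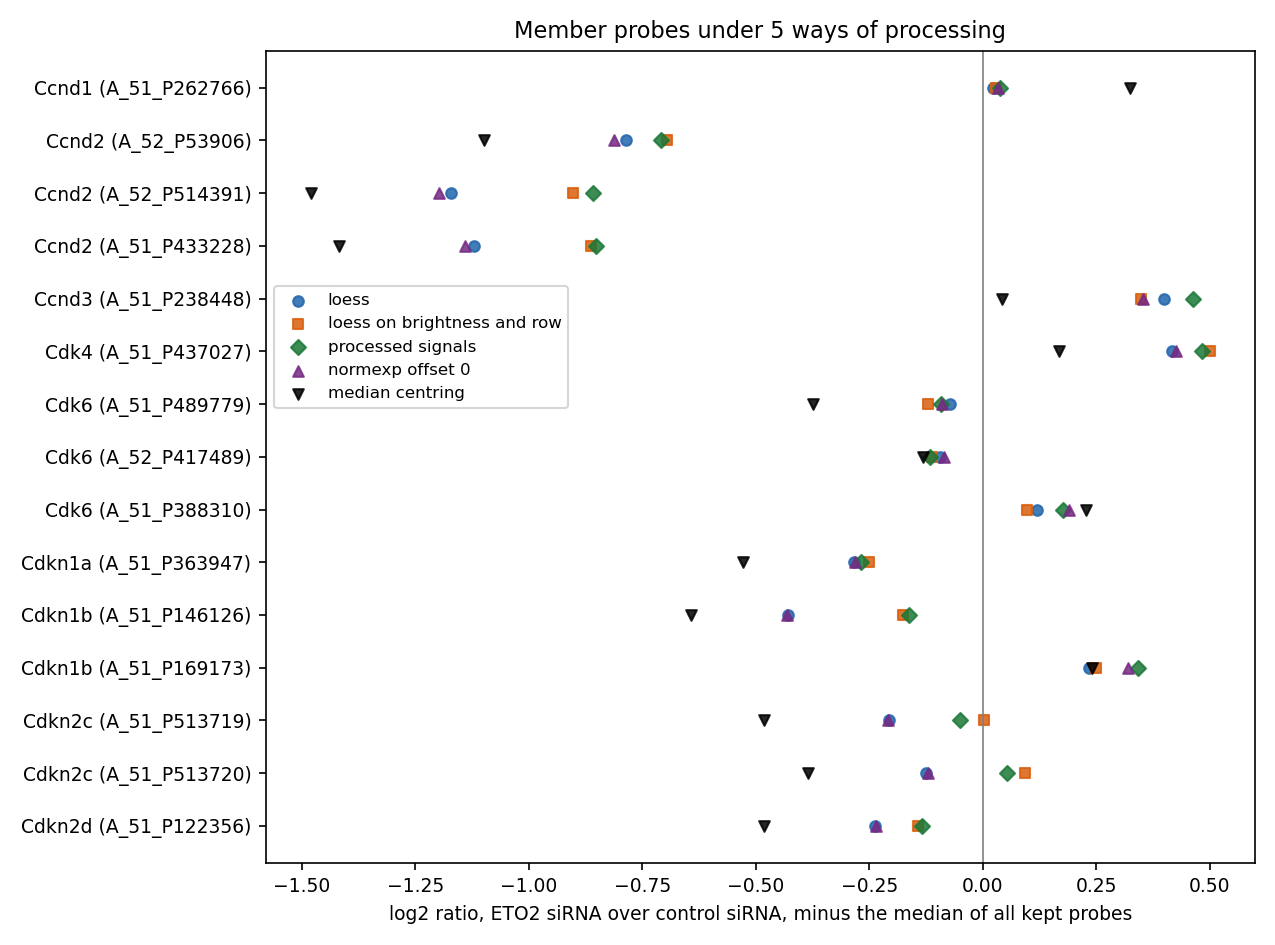
Log2 ratio of each tested member probe minus the median of all kept probes under the same processing, for loess, loess on brightness and row, the scanner software's processed signals, normexp with offset 0, and median centring. Ccnd2 stays below -0.6 under all 5, and relative to that median Ccnd3 and Cdk4 stay above 0 although their own log2 ratios are below 0 under median centring. Cdkn2c moves from below 0 to about 0 or above with the row adjustment.

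The genes around the D cyclin step did not move one way. Of 54 listed genes in 5 lists, 48 were measured, and by the brightest probe 13 rose, 16 fell and 19 did not pass the test. Of all 16585 genes taken by their brightest probe, 18.1% were called higher and 21.9% lower. The median log2 ratio of the 48 genes was -0.11, beside -0.02 over all genes. Row-adjusted, 15 were higher and 14 lower, beside 14.6% and 13.8% of all probes. Under median centring 0 were higher and 42 lower, beside 3.11% and 63.7% of all probes. With processed signals only 1 was higher and 4 lower, beside 5.78% and 5.52% of all probes. The authors' deposited table gave 0 and 4 (limma, adjusted), beside 5.44% and 5.15%. Most of the calls below thus depend on the processing. At an unadjusted limma p below 0.05 these counts were 14 and 12 with processed signals and 13 and 12 with the deposited table. The share of all genes past that unadjusted limit was not computed, so these counts cannot be set against a background. Where a median-centred value is given, the median of all probes under that scaling was -0.29.

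Upstream regulators held the largest changes. Of 15 measured, 5 rose and 5 fell, with a median of -0.08. Gata2, a transcription factor of progenitor cells, fell with a log2 ratio of -1.07 ± 0.02 (SD, n = 2; row-adjusted -0.83). Kit, the receptor for stem cell factor, fell with -0.98 ± 0.10 (row-adjusted -0.96), and Max, the binding partner of Myc, with -0.69 ± 0.06 (row-adjusted -0.44). Epor, the erythropoietin receptor, rose with 0.51 ± 0.10 (row-adjusted 0.31), and median centring put it at -0.08, which is 0.21 above the all-probe median. Ccnd2 fell on the same arrays as Kit and Gata2, where 20.7% of all tested probes were called lower, and a link between them was not tested.

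Among E2F and pocket proteins, which the D cyclin kinases act through, 3 of 13 rose and 4 fell, with a median of -0.05. With processed signals 0 rose and 0 fell after adjustment in limma, against 4 and 5 at an unadjusted p below 0.05, and the authors' deposited table gave 0 and 0 against 3 and 5. The unadjusted counts again have no share of all genes beside them. E2f2, an activator E2F abundant in erythroid cells, fell with a log2 ratio of -0.52 ± 0.23 (SD, n = 2; row-adjusted -0.33). E2f3 fell by its brightest probe with -0.53 ± 0.11 (row-adjusted -0.32), but its 3 probes ran up to 0.06. E2f8, a repressor E2F, rose with 0.48 ± 0.15 and Tfdp1, the dimer partner of E2Fs, with 0.39 ± 0.10, and median centring put them at -0.01 and -0.16, which is 0.28 and 0.12 above the all-probe median. The other kept probe of each gene was at 0.08. The row-adjusted values of E2f8 and Tfdp1 were 0.34 and 0.23.

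The cyclin E and A list, whose kinases act after the D cyclins, had 2 genes higher and 3 lower of 8, with a median of -0.13. The E cyclins, which activate CDK2 at the start of replication, moved apart. Ccne1 rose with a log2 ratio of 0.52 ± 0.09 (SD, n = 2; row-adjusted 0.32; -0.04 under median centring, 0.24 above the all-probe median), and Ccne2 fell with -0.33 ± 0.17 (row-adjusted -0.52). Ccna2, cyclin A2, fell with -0.34 ± 0.03 and Ccnh, the cyclin of the CDK-activating kinase, with -0.33 ± 0.06. Both lost their calls when row-adjusted, at -0.10 and -0.09, and the 4 probes of Ccnh ran up to 0.47.

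In the list on the turnover of cyclins and p27, 2 of 11 rose and 4 fell, with a median of -0.14. Ddb1, an adaptor of CUL4 ubiquitin ligases, rose with 0.43 ± 0.16 (SD, n = 2; row-adjusted 0.37; -0.09 under median centring, 0.19 above the all-probe median). Ambra1, a substrate receptor through which D cyclins are degraded, fell with -0.46 ± 0.06 by its brightest probe (row-adjusted -0.30), while its other probe was at 0.09. Skp1a, an SCF ligase subunit, fell with -0.37 ± 0.02, and lost its call when row-adjusted at -0.09. Cks2, a small CDK-binding protein, was saturated in the control channel on both arrays, so its fall is not sized. Its log2 ratio of -0.44 became -0.18 when row-adjusted, which missed the threshold, and -0.12 with processed signals. Of the other CDK inhibitors only Cdkn3, a CDK-directed phosphatase, was measured, and it rose with 0.27 ± 0.08 (row-adjusted 0.37; -0.25 under median centring, 0.03 above the all-probe median). Cdkn1c, Cdkn2a and Cdkn2b were not well above background.

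**Figure D5:**
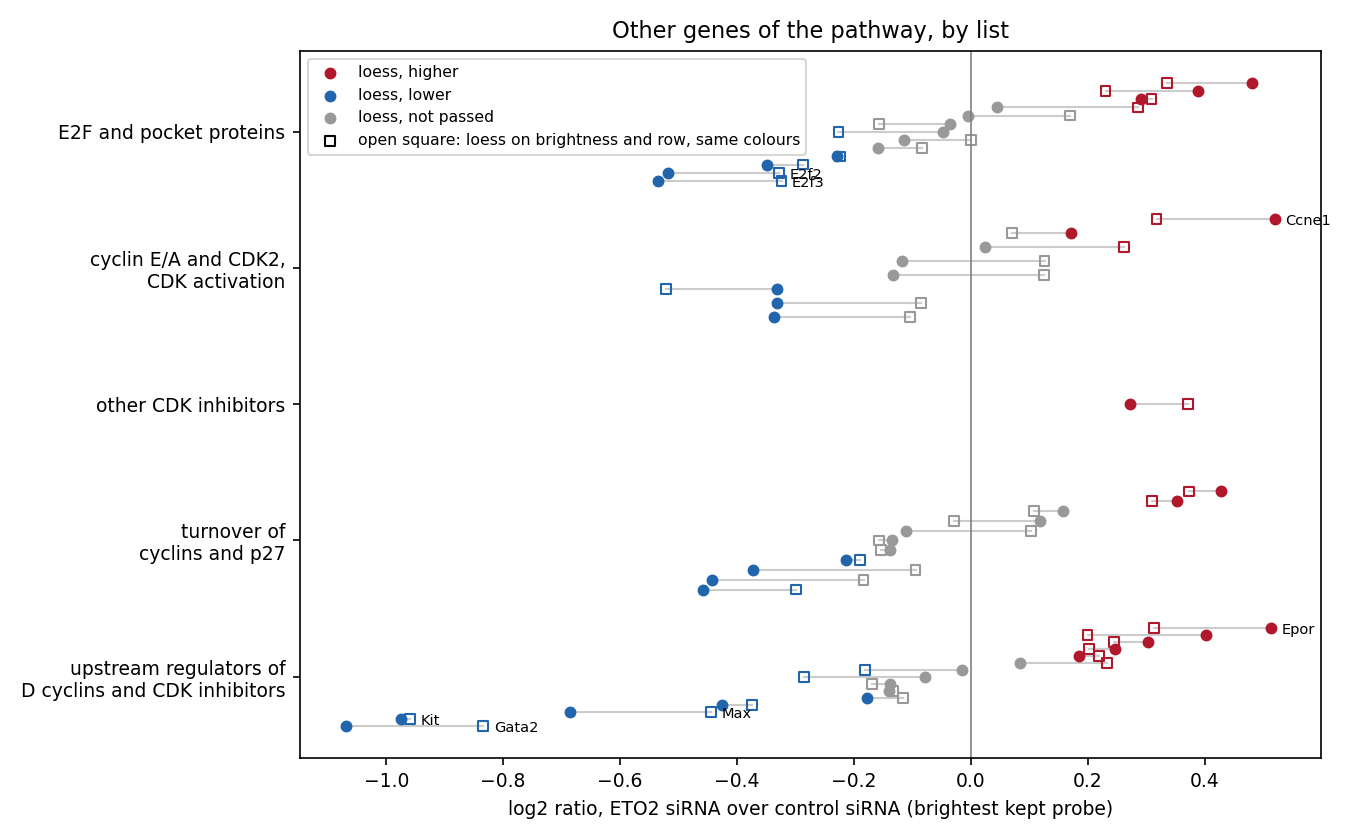
Log2 ratio of ETO2 siRNA over control siRNA for the 48 measured genes of 5 lists around the D cyclin step, by the brightest kept probe. Filled circles are loess on brightness and open squares loess on brightness and row, in red where called higher, blue where called lower and grey where the test was not passed. Each list has points on both sides of 0 except the single CDK inhibitor Cdkn3, Kit and Gata2 lie furthest to the left, and under median centring no gene of these lists is called higher.

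Promoter windows of 300 bases, from 250 before to 50 after the start site, were taken from RefSeq (GRCm38.p6) and found for 7 of the 9 members in 10 windows. Ccnd1 and Ccnd2 had no window in that table and were not searched. The 10 windows were searched on both strands for the GATA motif written as AGATAA or AGATAG or TGATAA or TGATAG, since GATA-1 is the factor activated in these cells. Among the 7 members, only Cdkn1a held a match, at chr17:29090772-29090801 on the plus strand, where the capitals mark the motif on the opposite strand.
Cdkn1a window: tggatttcctttCTATCAgccccagaggat
The same letters occur in 29.8% of all 32851 windows. The shorter core GATA was found in windows of Cdkn1a, Cdkn2c, Cdk4 and Ccnd3, and in 57.9% of all windows. Other motifs were searched too. The E-box motif CAGCTG was found in a window of Cdkn1a and in 16.3% of all windows. The E-box motif CAGATG and an E2F motif occur in 17.2% and 2.3% of all windows, and were found in none of the members. The matches describe the sequence only, since binding was not measured here.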

How the data were processed

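RNA of G1E-ER-GATA-1 cells was measured on 2 two-colour Agilent arrays of 45018 features, of which 1639 were controls. Deposited spot and local background intensity values were read with Agilent Feature Extraction 9.1.3.1, per the file headers, and are not normalized. The deposited processed intensity was background-subtracted, spatially detrended and dye-normalized by that software, per the file headers. The software's log10 ratio (red over green) uses it, and the authors' deposited table held that log10 ratio within 0.005 on all 45018 features. Its sign was turned. Per the file headers, flags for saturation, outliers and signal above background come from it too. The build behind the probe design was not given in the sources used here.

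Signals were corrected by normexp (offset 50) and normalized within each array by loess in limma 3.58.1 (R 4.3.3). Outlier flags removed 10 and 4 spots, and spots of a probe were averaged. Probes well above background in at least 1 channel on both arrays were kept (24434, or 59.3%), and 24430 with values on both arrays were tested with lmFit and eBayes against 0, two-sided, with Benjamini-Hochberg adjustment at 0.05. With 1 residual degree of freedom and 14.4 prior degrees of freedom, each p-value leans on the variance shared over probes, and a sign permutation of 2 arrays cannot go below 0.5. Under median centring the prior degrees of freedom were 7761, so its very small p-values rest almost wholly on that shared variance. Labels number the arrays as replicates without saying that they came from separate cultures, so p-values measure only the spread between these arrays, and their number limits the precision. The row adjustment is a second loess (span 0.3) on brightness and array row. The steps were tested on simulated data. Members and lists were chosen with earlier results of these data known. All member probes are named, and from each list up to 4 genes with the largest change past the threshold. Alternatives covered the offset, centring, signal, filter, saturation, probe choice and leaving out an array.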

Additional observations from a re-analysis of the deposited data

How the results depend on the processing

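The fall of the 3 Ccnd2 probes passed the threshold under every alternative run. The calls of 3 higher and 7 lower member probes became 0 and 11 under median centring, 2 and 3 with processed signals, 1 and 3 with the authors' deposited ratio table, and 3 and 4 with the row adjustment, which was chosen after seeing the data. For the pathway genes, 13 higher and 16 lower became 0 and 42 under median centring, 1 and 4 with processed signals, and 0 and 4 with the deposited table. Over all probes, 4581 higher and 5049 lower became 760 and 15561, 1411 and 1349, and 1329 and 1257. Under median centring the log2 ratio turned to -0.24 for Ccnd3, -0.12 for Cdk4, -0.058 for Cdk6 A_51_P388310 and -0.046 for Cdkn1b A_51_P169173. That scaling put the median of all probes at -0.29, and relative to it these 4 were at 0.04, 0.17, 0.23 and 0.24. Under loess they were at 0.40, 0.42, 0.12 and 0.23 relative to the all-probe median. All 4 thus stayed above that median, but Ccnd3 and Cdk4 stood closer to it. Under median centring Ccnd3 was called lower, with an adjusted p of 0.0033 by limma. For Cdkn2c, A_51_P513720 turned to 0.057 with processed signals and with the deposited table and to 0.10 with the row adjustment, and A_51_P513719 to 0.0034 with the row adjustment. Of 138 comparisons of a member probe with an alternative, 109 kept direction and side of the threshold, 18 lost the call, 3 gained one and 8 reversed, 4 of them under median centring as above. Alternatives that change only the filter, the saturation rule or the choice of the brightest probe leave a probe's own ratio as it was. The mean of the probes of a gene was counted under its brightest probe. The deposited table closely repeats the ratios of the processed signals, so these comparisons are not independent of each other. Leaving out an array gives the other array's value, with no test, and those values stand in the report. The test is already paired by array, since each ratio compares both groups on the same array, and a single group of ratios allows no further pairing. Ccnd1 and Cdkn1b A_52_P673863 were too close to background to show a moderate change.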

Other observations

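The cyclins and CDKs outside the D cyclin step were measured too. Of 28, 7 rose, 6 fell and 15 did not pass the limma test, with a median log2 ratio of 0.04. Over all genes 18.1% were called higher and 21.9% lower, so these counts are near the background. When row-adjusted, 4 of the rises and 4 of the falls also passed. Ccng2, a cyclin linked to cell cycle arrest, fell with -0.41 ± 0.19 (SD, n = 2; row-adjusted -0.47). Cdk11b, Ccny and Cdk16 rose with 0.46, 0.43 and 0.41 (row-adjusted 0.27, 0.26 and 0.20), although median centring put them at -0.02, -0.04 and -0.07, above the all-probe median of -0.29 under that scaling. Of the genes of mitosis and late cycle, Ccnb1 and Ccnf rose with 0.19 and 0.27 but did not pass when row-adjusted, at 0.17 and 0.08. Cdk1 and Ccnb2 gave 0.05 each and did not pass, while Cdk1 was called higher when row-adjusted, at 0.21. These genes were chosen after their values were seen.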
